A study of Mus musculus with 2 samples.

Results

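Epicardial cells, the mesothelium that covers the heart, were picked out of single-cell RNA profiles of newborn mouse heart by a rule on counts, and 51 of 11749 kept cell barcodes met it. A barcode was kept with at least 500 detected genes, and 11749 of 11935 deposited barcodes were. A member needed at least 3 counts from at least 2 of the 4 genes Efemp1, Rspo1, Bnc1 and Upk3b. It also needed under 0.5% of its counts from haemoglobin genes, under 0.3% from the myosin light chain genes Myl2 and Myl7 together, and at most 1 count of the endothelial genes Pecam1 and Cdh5. The members made up 0.434% of kept barcodes (exact 95% interval 0.323 to 0.570) and held 0.824% of all kept counts.

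The study profiled untreated whole heart at postnatal day 0 from mice of C57BL6+ICR background as a reference map from which to choose transcription factors for lineage conversion. The only group is P0 whole heart, 1 biological sample run as technical replicates 1 and 2. The tissue was minced and digested with trypsin, and whether animals were pooled is not given. Technical replicate 1 held 34668956 counts in 5888 barcodes and technical replicate 2 held 33871582 counts in 6047 barcodes, with medians of 4858 and 4521 counts per kept barcode. Both records carry one internal identifier, while the columns of replicate 2 carry another. With 1 biological sample there is no test. Values of genes and lists are given in both technical replicates, with an exact 95% interval, or once over both replicates together. The intervals cover counting error only.

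The epicardium is a single sheet of mesothelial cells that forms when cells of the proepicardium spread over the heart tube. Its cells keep epithelial features such as keratins and uroplakins, rest on a basement membrane, and some of them undergo epithelial to mesenchymal transition and enter the heart wall as fibroblasts and mural cells. The layer is also known as a source of retinoic acid and of growth factors for the underlying muscle, and the transcription factors Wt1, Tbx18 and Tcf21 are widely used to mark it and its descendants.

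Members were uneven between the technical replicates. Replicate 1 held 18 members of 5804 kept barcodes, or 0.310% (0.184 to 0.490), and replicate 2 held 33 of 5945, or 0.555% (0.382 to 0.779). The intervals of the replicates overlap. Members held a median of 8691 counts and 3020 genes, and 4.10% mitochondrial counts. Fibroblast-like cells had a median of 6080 counts and 2424 genes. A barcode was called fibroblast-like when it passed the same limits without meeting the member rule and held at least 3 counts from at least 2 of Tcf21, Dpt and Pdgfra, and 955 barcodes were. Cardiomyocyte-like cells had a median of 5889 counts, with 20.5% mitochondrial counts. The rule's text expected about 90 members. In all 71 barcodes met its marker minimum, and 20 of those failed another limit. The highest member had 0.291% of its counts from Myl2 and Myl7, and 10 barcodes failed on that limit alone, at 0.3001% to 0.572%. The highest member had 0.443% from haemoglobin genes, and 3 barcodes failed on that limit alone, at 0.508% to 0.541%. The member with the fewest marker counts had 3, the next had 6, the median was 21, and the highest was 143. Among barcodes that passed the other limits but not the marker minimum, 41 held at least 1 marker count, and the most any of them held was 11, all from 1 gene.

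The members were chosen by their counts of the 4 rule genes, so those levels are a description. Levels are given in CPM, the gene's summed counts per 1000000 summed counts of all genes in the class. Upk3b, a uroplakin of apical membranes, stood at 1982 and 1894 CPM in the members of replicates 1 and 2. Rspo1, a secreted R-spondin that strengthens Wnt signalling, stood at 566 and 576 CPM. Efemp1, an extracellular matrix glycoprotein, stood at 433 and 345 CPM, and Bnc1, a zinc finger transcription factor, at 124 and 219 CPM. The fifth marker given for these cells, Wt1, was not used by the rule. Wt1, a zinc finger transcription factor of the epicardium and kidney, was detected in 44 of 51 members. It stood at 414 and 391 CPM in members, against 11.1 and 7.45 CPM in fibroblast-like cells. The level in members was 42.6 times that in fibroblast-like cells (31.6 to 58.1). Wt1 was not particular to members, since it reached 110.5 CPM in vascular endothelial-like cells and 67.8 CPM in endocardial-like cells. Members held 13.7% of all kept Wt1 counts.

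**Figure D1:**
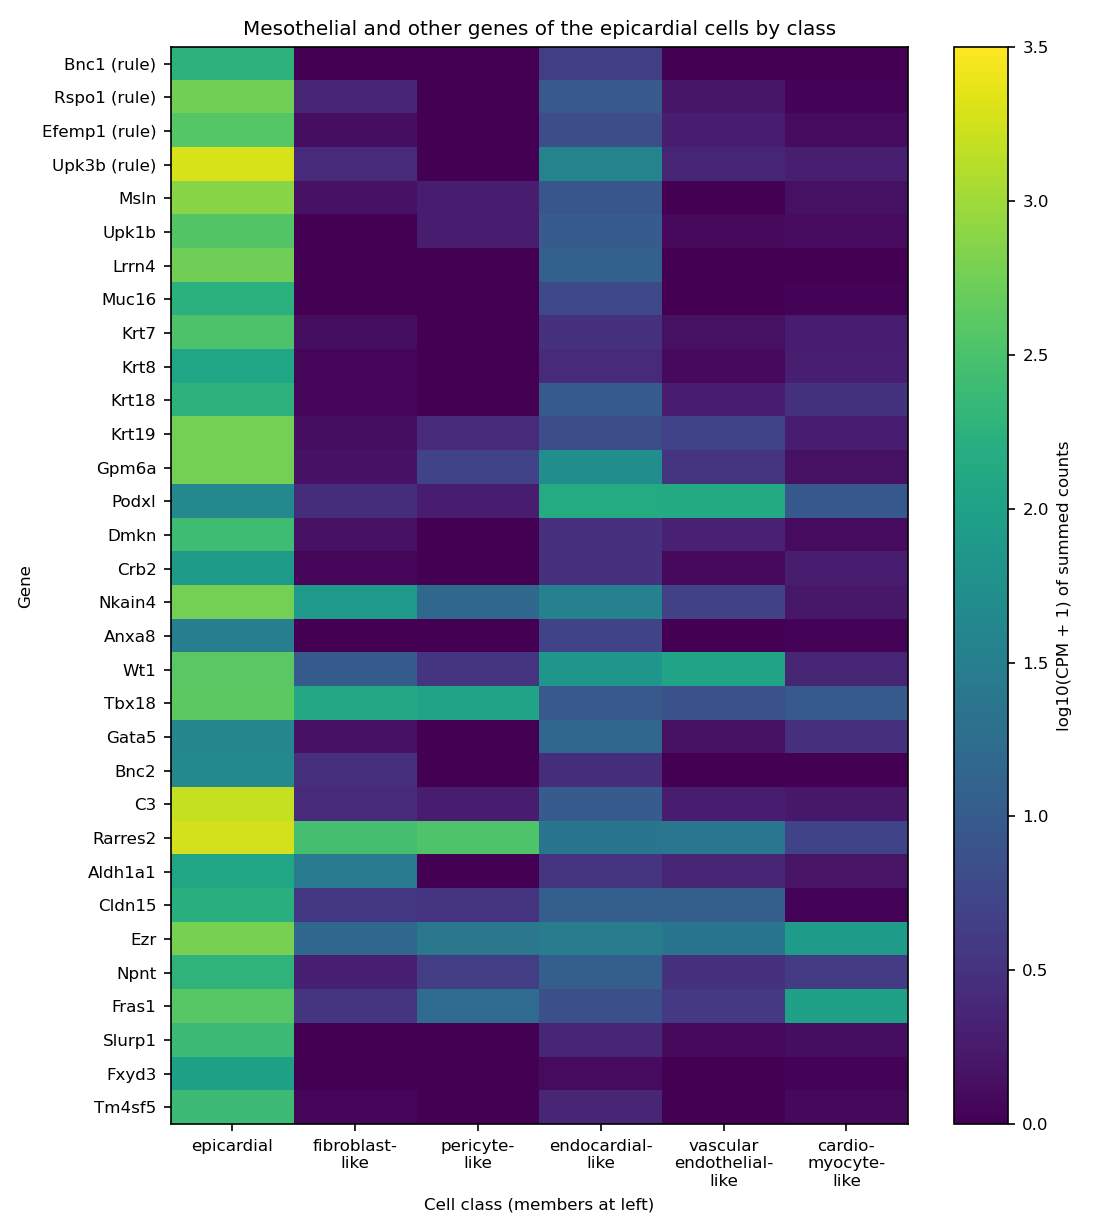
Colour gives log10(CPM + 1) of summed counts for rule genes, mesothelial genes and other named genes (rows) in the members and each rule-based class (columns, members at left). Wt1 stands at 399.7 CPM in members and at 110.5 CPM in vascular endothelial-like cells, while Msln stands at 765 CPM in members and at 7.59 CPM or less in the other classes shown.

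Across 11256 genes with at least 20 counts in members and fibroblast-like cells together, a gene was called higher when its CPM in members was at least 2 times that in fibroblast-like cells in each technical replicate, and lower when it was at most 0.5 times in each. This called 1021 genes higher, or 9.07%, and 1118 lower, or 9.93%, and the median log2 ratio over all tested genes was -0.03. With the further demand that the 95% interval of the ratio lie clear of 1, 974 genes stayed higher, or 8.65%, and 774 lower, or 6.88%. Every gene named below as lower met this demand. A gene with few or no fibroblast-like counts passed the filter through members alone, and could then only be called higher.

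Mesothelial surface and keratin genes had the largest median ratio of the 12 gene lists compared. Of 13 tested members of the list, 13 were called higher and 0 lower, with a median log2 ratio of 9.50, and Anxa8 had too few counts to be tested. Several of the 13, such as Lrrn4, passed the count filter through members alone. Barcodes that met the member rule were also kept out of the fibroblast-like class, so this tally is a description. A gene with 0 fibroblast-like counts entered the median at its lower bound from 3 counts, so the median depends on that limit. Msln, the surface glycoprotein mesothelin, stood at 989 and 630.2 CPM in members, against 0.636 and 0.355 CPM in fibroblast-like cells, where it had 3 counts in all. Lrrn4, a membrane protein with leucine-rich repeats, stood at 523 and 573 CPM in members and had 0 counts in fibroblast-like cells in both replicates. The ratio for Msln was 1522 (517 to 7409), and Lrrn4 was at least 1101-fold higher in members, against a limit of 3 counts over the fibroblast-like class. The uroplakin Upk1b stood at 389.8 and 348 CPM in members and had 0 counts in fibroblast-like cells, at least 724-fold higher in members. Muc16, a large membrane mucin that binds mesothelin, was likewise at least 335-fold higher.

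The keratins of simple epithelia, which build intermediate filaments, were all detected in members. Krt19 stood at 646 and 558 CPM in members, against 0.636 and 0 CPM in fibroblast-like cells. Krt7 stood at 399 and 296 CPM in members, against 0.318 and 0.355 CPM in fibroblast-like cells. Krt18 stood at 219 and 158 CPM in members and Krt8 at 124 and 106 CPM, each with 1 count in all fibroblast-like cells. Gpm6a, a neuronal membrane glycoprotein also found in mesothelium, stood at 594 and 596 CPM in members and at 0.636 and 0.355 CPM in fibroblast-like cells. Of the list, Nkain4 had the smallest ratio, at 7.79 (6.73 to 9.01), with 646 and 535 CPM in members, against 79.8 and 67.8 CPM in fibroblast-like cells. Podxl, a sialomucin that keeps apical surfaces apart, was 23.3 times its fibroblast-like level, but its 43.0 CPM in members lay below the 143 CPM of endocardial-like and the 139 CPM of vascular endothelial-like cells.

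Shares of cells carried the same contrast once every cell was thinned at random to 2000 counts, which kept 50 members. Msln was then found in 58% of members (43.2 to 71.8), against 0.211% of fibroblast-like cells and 0.0565% of cardiomyocyte-like cells, and without thinning in 86.3% of members. Krt19 was found in 64% of thinned members (49.2 to 77.1), against 0.106% of fibroblast-like cells and 0 of 1770 cardiomyocyte-like cells, where 0 allows up to 0.208%. Both genes were found together in 22 thinned members, with Msln in 29 and Krt19 in 32.

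Epicardial and mesenchymal transcription factors split. Of 18 tested, 5 were called higher and 6 lower, with a median log2 ratio of 0.42, and 1 of the 6, Tcf21, helped define the fibroblast-like class and is no result here. Tbx18, a T-box repressor of the proepicardium, stood at 371 and 432 CPM in members, against 136 and 122 CPM in fibroblast-like cells, a ratio of 3.16 (2.71 to 3.67). Osr1, a zinc finger factor of lateral mesoderm, stood at 195 and 181 CPM in members, against 78.8 and 70.9 CPM in fibroblast-like cells, a ratio of 2.48 (1.99 to 3.08). Gata5, a cardiac GATA factor, stood at 52.3 and 34.5 CPM in members, against 0.954 and 0 CPM in fibroblast-like cells. In each replicate the summed level in members was above that in fibroblast-like cells for these 3 factors, and Wt1 and Bnc2 completed the 5. Single cells of the classes overlapped. After thinning, Tbx18 was found in 40% of members and 18.8% of fibroblast-like cells, and Osr1 in 24% and 10.7%. Gata6, a relative of Gata5, stood at 285 and 351 CPM in members, against 158 and 143 CPM in fibroblast-like cells, but its ratio reached 2 only in replicate 2, so it was not called.

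Lower in members was Tbx20, a T-box factor of heart muscle and cushion mesenchyme, with 143 and 176 CPM in members, against 1123 and 1175 CPM in fibroblast-like cells. Its ratio was 0.142 (0.114 to 0.175), and cardiomyocyte-like cells had 968 CPM. Sox9, a factor of valve and cartilage precursors, stood at 9.51 and 2.88 CPM in members, against 282 and 250.1 CPM in fibroblast-like cells. Prrx1, a mesenchymal homeobox factor, stood at 57.0 and 48.9 CPM in members, against 154 and 149 CPM in fibroblast-like cells. Mecom and Nr2f1 had 0 counts in members. Wt1 and Tbx18 each appeared in 20 of 50 thinned members, and both together in 8. Tcf21, described here within members alone, appeared in 5 thinned members and, without thinning, in 19 of 51.

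Junction and polarity genes were higher or not called. Of 14 tested, 9 were called higher and 0 lower, with a median log2 ratio of 1.94. Ezr, the ezrin that links apical membrane to actin, stood at 532 and 642 CPM in members, against 13.0 and 14.2 CPM in fibroblast-like cells, a ratio of 44.2 (34.6 to 57.1). Cldn15, a tight junction claudin, stood at 181 and 158 CPM in members, against 1.59 and 3.90 CPM in fibroblast-like cells. Cdh3, the P-cadherin of epithelial contacts, stood at 71.3 and 74.8 CPM in members, against 2.23 and 4.26 CPM in fibroblast-like cells. The summed levels of the classes are far apart for all 3. The polarity genes Pard6b and Prkci, whose proteins act in one apical complex, were 7.33 (4.69 to 11.3) and 2.81 (1.74 to 4.41) times the fibroblast-like level. Cdh1, the E-cadherin of most epithelia, and Crb3, an apical Crumbs protein, had 0 counts in members.

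Genes of epithelial to mesenchymal transition ran mostly the other way. Of 21 tested, 2 were called higher and 11 lower, 10 of these with an interval clear of 1, and the median log2 ratio was -1.16. Among the transcription factors that drive the transition, Zeb2 stood at 38.0 and 48.9 CPM in members, against 346 and 305 CPM in fibroblast-like cells, a ratio of 0.137 (0.0885 to 0.203). Zeb1 stood at 57.0 and 46.0 CPM in members, against 218 and 212 CPM in fibroblast-like cells. Snai2 stood at 19 and 8.63 CPM in members, against 69.9 and 63.1 CPM in fibroblast-like cells. The members' summed level lay below the fibroblast-like level in each replicate for all 3. After thinning, Zeb2 was found in 8% of members and 42.0% of fibroblast-like cells, Zeb1 in 8% and 33.9%, and Snai2 in 4% and 11.1%. Snai1 and Twist2 were also lower, each with 5 counts in members. The smooth muscle actin gene Acta2 stood at 28.5 and 17.3 CPM in members, against 608 and 625 CPM in fibroblast-like cells, and Tagln, an actin-binding protein of smooth muscle, had 2 counts in members. Vim, the mesenchymal intermediate filament vimentin, was lower but abundant, at 1008 and 1053 CPM in members, against 2493 and 2589 CPM in fibroblast-like cells. Cdh11, a cadherin of mesenchyme, was higher, at 475 and 458 CPM in members, against 54.0 and 58.9 CPM in fibroblast-like cells, and endocardial-like cells had 235 CPM of it. The TGF-beta co-receptor gene Tgfbr3 was the other gene called higher, at 2.53 times (1.51 to 4.06). Tgfbr3 was found in 6% of thinned members and 10.95% of thinned endocardial-like cells.

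**Figure D2:**
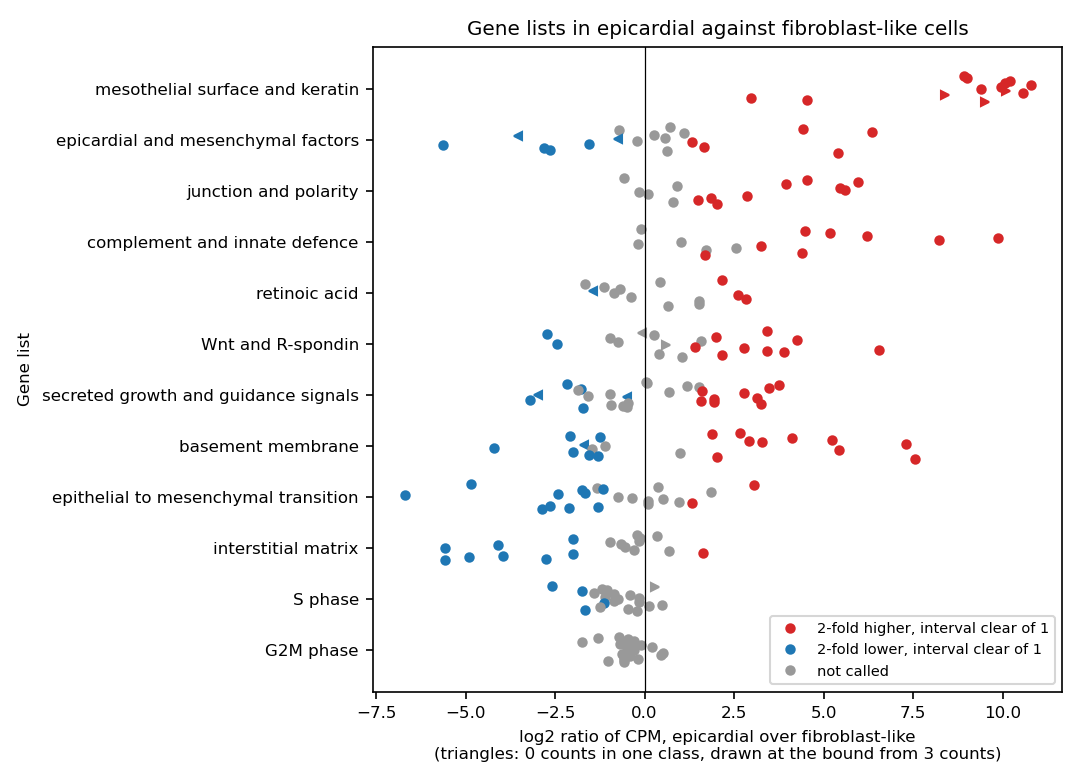
Each mark is 1 tested gene, placed by its log2 ratio of CPM in epicardial over fibroblast-like cells, with gene lists down the page. Triangles are genes with 0 counts in one class, drawn and entered in the medians at the bound from 3 counts. The mesothelial list has a median of 9.50 and complement of 3.25, while the transition list has -1.16 and interstitial matrix -0.82.

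Basement membrane genes were divided by chain. Of 20 tested, 10 were called higher and 7 lower, with a median log2 ratio of 1.43. The type IV collagen chains Col4a3, Col4a4, Col4a5 and Col4a6 were all higher. Col4a4 stood at 99.8 and 80.6 CPM in members, against 2.23 and 2.48 CPM in fibroblast-like cells. Col4a1 and Col4a2, which form the ubiquitous type IV network, were both lower. Col4a1 stood at 133 and 224 CPM in members, against 778 and 822 CPM in fibroblast-like cells. Lama5, a laminin alpha chain of epithelial basement membranes, stood at 71.3 and 71.9 CPM in members, against 1.59 and 1.77 CPM in fibroblast-like cells. Lama2, the laminin alpha chain around muscle, stood at 0 and 11.5 CPM in members, against 132 and 134 CPM in fibroblast-like cells. Fras1, a protein that anchors epithelia to the matrix beneath, stood at 356 and 417 CPM in members, against 2.23 and 2.84 CPM in fibroblast-like cells, a ratio of 157 (93.0 to 285). Cardiomyocyte-like cells had 98.8 CPM of Fras1. Npnt, an integrin ligand of basement membranes, was 187 times its fibroblast-like level (83.2 to 522), with 6 counts in fibroblast-like cells. Frem1, a partner of Fras1 in the same anchoring complex, had 0 counts in members, against 17.3 CPM in fibroblast-like cells.

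Interstitial matrix was shared in its most abundant collagens and lower in other genes. Of 18 tested, 1 was called higher and 8 lower, with a median log2 ratio of -0.82, and 1 of the 8, Dpt, helped define the fibroblast-like class. Col3a1, a fibrillar collagen, stood at 7220.0 and 7278 CPM in members, against 7625 and 8166 CPM in fibroblast-like cells, a ratio of 0.921 (0.891 to 0.951). Col1a1 stood at 3560.0 and 3574 CPM in members, against 4072 and 4234 CPM in fibroblast-like cells. Both collagens were therefore within 2-fold of fibroblast-like cells, while endocardial-like cells had 309 CPM of Col3a1 and 98.7 CPM of Col1a1. Fbln2, an elastic fibre and basement membrane protein, was the gene called higher, at 779.6 and 826 CPM in members, against 259 and 263 CPM in fibroblast-like cells. Lum, a proteoglycan that spaces collagen fibrils, stood at 66.5 and 115 CPM in members, against 1419 and 1560.0 CPM in fibroblast-like cells, a ratio of 0.0651 (0.0489 to 0.0851). Postn, a matricellular protein of cardiac fibroblasts, stood at 147 and 5.75 CPM in members, against 2828 and 2851 CPM in fibroblast-like cells. Most of the Postn counts lay in 1 member of replicate 1, which held 29 of the 33 counts, and with 5 marker counts needed, which left that member out, the ratio of Postn against fibroblast-like cells was 0.00256 in place of 0.0208. Mfap4, Mfap5, Fbn1, Col5a1 and Col6a3, genes of microfibrils and of minor collagens, were the others called lower.

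Complement and innate defence genes were higher or not called. Of 13 tested, 8 were called higher and 0 lower, with a median log2 ratio of 3.25. C3, the central component of complement, stood at 1588 and 1554 CPM in members, against 0.954 and 2.48 CPM in fibroblast-like cells, a ratio of 934 (506 to 1956). It was found in 49 of 51 members, and in 84% of thinned members (70.9 to 92.8), against 0.529% of fibroblast-like and 0.170% of cardiomyocyte-like cells. Members held 71.2% (68.6 to 73.8) of all kept C3 counts, and the 20 barcodes that met the marker minimum but failed another limit held a further 12.7%. C2, a serine protease of the classical pathway, stood at 105 and 95 CPM in members, against 0.636 and 2.13 CPM in fibroblast-like cells. C1s1 and C1ra, proteases of the first complement complex, were 36.4 (21.8 to 63.2) and 22.2 (11.1 to 46.9) times the fibroblast-like level. Serping1, the C1 inhibitor, was higher as well and stood at 551 and 426 CPM in members, against 146 and 149 CPM in fibroblast-like cells. H2-K1, a class I antigen-presenting chain, was 21.1 times the fibroblast-like level (14.6 to 31.1), while its partner B2m was not called, at 589 and 455 CPM in members, against 506 and 587 CPM in fibroblast-like cells.

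Retinoic acid genes were mostly not called. Of 13 tested, 3 were called higher and 1 lower, with a median log2 ratio of 0.43. Aldh1a2, the main retinaldehyde dehydrogenase of the embryonic epicardium, stood at 304 and 224 CPM in members, against 187 and 192 CPM in fibroblast-like cells, a ratio of 1.35 (1.12 to 1.60), and was not called. Aldh1a1, a second such dehydrogenase, was called higher, at 147 and 101 CPM in members, against 30.8 and 22.0 CPM in fibroblast-like cells. Rarres2, which encodes the secreted adipokine chemerin, stood at 1973 and 1698 CPM in members, against 289.9 and 297 CPM in fibroblast-like cells. For both genes the summed level in members was above that in fibroblast-like cells in each replicate. Rbp4, a retinol carrier, was 7.13 times higher (4.07 to 12.3), and Rarb, a retinoic acid receptor, had 0 counts in members, against 14.6 CPM in fibroblast-like cells. Endocardial-like cells had 7.86 CPM of Aldh1a2 and cardiomyocyte-like cells 2.28 CPM.

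Wnt and R-spondin genes were called higher more often than lower. Of 19 tested, 9 were called higher and 4 lower, 2 of these with a clear interval, and the median log2 ratio was 1.41. Among the ligands, Wnt5a stood at 309 and 331 CPM in members, against 21.9 and 21.6 CPM in fibroblast-like cells, a ratio of 14.8 (11.8 to 18.7). Wnt2 stood at 38.0 and 51.8 CPM in members, against 0.954 and 0 CPM in fibroblast-like cells, and endocardial-like cells had 32.0 CPM. Wnt4, Wnt9a and Wnt11 were 10.7 (5.65 to 20.2), 4.48 (2.43 to 7.93) and 6.87 (2.62 to 17.1) times the fibroblast-like level. So the members carried counts of 5 Wnt ligands above fibroblast-like cells. Wnt11 was found in 2% of thinned members and 2.83% of thinned endocardial-like cells. Rspo2, an R-spondin that the rule did not use, stood at 38.0 and 48.9 CPM in members, against 2.86 and 1.77 CPM in fibroblast-like cells. Wls, which carries Wnt proteins to the cell surface, was 2.65 times higher (2.12 to 3.30). Axin2 and Nkd1, feedback inhibitors and common targets of the canonical pathway, were 10.7 (3.99 to 28.6) and 4.00 (2.82 to 5.59) times higher. Axin2 had only 10 counts in members, held by 4 cells, and was found in 0 of 50 thinned members. The secreted antagonist Sfrp2 was lower, at 119 and 95 CPM in members, against 525 and 604 CPM in fibroblast-like cells, and so was Dkk3.

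Other secreted signals were mixed. Of 27 tested growth and guidance genes, 9 were called higher and 7 lower, with a median log2 ratio of 0.05. Igf1, a growth factor for heart muscle, stood at 404 and 337 CPM in members, against 124 and 113 CPM in fibroblast-like cells. Igf1 was not particular to members. It was found in 32% of thinned members, 36.0% of thinned endocardial-like cells and 24.0% of thinned vascular endothelial-like cells. Fgf9, a fibroblast growth factor of the epicardium and endocardium, stood at 47.5 and 46.0 CPM in members, against 3.5 and 4.97 CPM in fibroblast-like cells. Pdgfa, a platelet-derived growth factor, stood at 99.8 and 152 CPM in members, against 15.6 and 14.5 CPM in fibroblast-like cells, with 123 CPM in cardiomyocyte-like cells. The guidance cues Sema3c, Sema3d and Slit3 were 3.0 (2.48 to 3.60), 3.84 (3.09 to 4.75) and 9.48 (7.19 to 12.5) times the fibroblast-like level. Il33, an alarm cytokine of barrier cells, was 6.90 times higher (4.76 to 9.94). Lower in members were Ptn, a heparin-binding growth factor, at 257 and 216 CPM against 2131 and 2114 CPM in fibroblast-like cells, and Fstl1, a secreted follistatin relative, at 594 and 460.4 CPM against 1725 and 1789 CPM. Cxcl12, a chemokine that guides coronary vessels, had 6 counts in members, at 10.8 CPM, against 48.6 CPM in fibroblast-like cells.

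Outside the lists, the 10 called genes with the largest ratios to fibroblast-like cells differed in how far other classes carried them. Tm4sf5, a membrane protein of the tetraspan type, stood at 185 and 285 CPM in members, against 0 and 0.355 CPM in fibroblast-like cells. Slurp1, a secreted Ly6-type protein of skin and other surfaces, stood at 333 and 201 CPM in members with 0 counts in fibroblast-like cells, at least 499-fold higher. Clic3, a chloride channel family member, was at least 224-fold higher, Il18r1, a chain of the interleukin-18 receptor, at least 257-fold, and Fxyd3, a regulator of the sodium pump, at least 196-fold. These 5 genes had little in the other classes too, with at most 3.80 CPM, for Il18r1 in endocardial-like cells. Prr15 had a ratio of 203 (66.1 to 1014) to fibroblast-like cells, but it was found in 17 of 51 members and in 137 of 285 endocardial-like cells, at 102 CPM in members and 114 CPM in endocardial-like cells. AU021092 was at least 178-fold higher than in fibroblast-like cells, at 89.6 CPM in members, against 15.5 CPM in endocardial-like and 13.0 CPM in vascular endothelial-like cells. Cst9 and Elavl2 were the others of the 10 beside Apela. Apela, a peptide ligand of the apelin receptor, stood at 80.8 and 104 CPM in members, against 0.954 and 0 CPM in fibroblast-like cells, while the receptor gene Aplnr had 0 counts in members and 365 CPM in vascular endothelial-like cells. At the other end, Aspn, a small proteoglycan, stood at 33.3 and 2.88 CPM in members, against 951 and 1030.0 CPM in fibroblast-like cells. Only 2 members had Aspn counts, and the ratio of Aspn against fibroblast-like cells was 0.00184 in place of 0.0145 when members needed 5 marker counts, which left out 1 member. Sparcl1, a matricellular protein, and Pi15, a secreted protease inhibitor, had 5 counts and 1 count in members, against 318 and 239 CPM in fibroblast-like cells.

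Promoters are shown for Tm4sf5, Lrrn4 and Fxyd3, because members held 78.0% (71.1 to 83.8), 75.2% (70.7 to 79.3) and 74.3% (62.8 to 83.8) of all kept counts of these genes. Each sequence is the 250 bases before the annotated start, 5′ to 3′ on the gene's strand, from RefSeq on GRCm38.p6, where Tm4sf5 lies at chr11:70505024-70505273 on the plus strand, Lrrn4 at chr2:132880863-132881112 on the minus strand and Fxyd3 at chr7:31076698-31076947 on the minus strand. Capitals mark a match to GGAATG, the core letters bound by TEAD factors.
Tm4sf5: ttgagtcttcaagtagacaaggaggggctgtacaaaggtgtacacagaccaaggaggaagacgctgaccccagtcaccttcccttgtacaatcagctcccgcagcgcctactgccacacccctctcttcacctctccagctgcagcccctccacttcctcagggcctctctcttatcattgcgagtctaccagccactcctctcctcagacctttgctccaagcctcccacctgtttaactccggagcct
Lrrn4: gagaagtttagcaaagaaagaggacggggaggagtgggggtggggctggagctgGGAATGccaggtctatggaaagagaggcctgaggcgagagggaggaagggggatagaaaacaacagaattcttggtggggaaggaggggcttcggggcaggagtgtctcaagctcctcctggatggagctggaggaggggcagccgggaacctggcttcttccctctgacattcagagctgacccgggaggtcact
Fxyd3: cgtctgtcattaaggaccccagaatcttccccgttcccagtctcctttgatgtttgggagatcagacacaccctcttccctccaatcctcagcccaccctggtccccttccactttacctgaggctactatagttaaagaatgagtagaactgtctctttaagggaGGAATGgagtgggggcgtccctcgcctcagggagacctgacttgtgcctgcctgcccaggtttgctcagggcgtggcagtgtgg
The letters searched on both strands were GGAATG, the GATA-type AGATAA and the WT1-type GCGNGGGNG. Lrrn4 and Fxyd3 each held GGAATG once, on the gene's strand, and the promoter of Tm4sf5 held none of the 3 motifs, so no matches overlapped. Of 32851 promoters of the same length, 12.6% held GGAATG, 9.99% AGATAA and 10.5% GCGNGGGNG. The GC content was 56.4% for Tm4sf5, 59.2% for Lrrn4 and 55.2% for Fxyd3, against a median of 52.4% over all promoters. A match describes the letters and does not show binding. Dmkn, of which members held 69.2% of kept counts, had 3 overlapping or alternative promoter entries, none with a match, which are not printed. Slurp1 and Wt1 were not matched in the promoter table.

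Several of the most abundant transcripts lay outside the lists and were chosen after their values were seen. Mgp, matrix Gla protein, an inhibitor of calcification, stood at 3037 and 3424 CPM in members, against 806 and 798 CPM in fibroblast-like cells. Igfbp5, an IGF-binding protein, stood at 2676 and 2924 CPM in members, against 63.6 and 63.9 CPM in fibroblast-like cells, a ratio of 44.4 (39.7 to 49.8), with 1394 CPM in endocardial-like cells. Cdkn1c, a cyclin-dependent kinase inhibitor and imprinted gene, stood at 1440.0 and 1776 CPM in members, against 396 and 431 CPM in fibroblast-like cells. The members' CPM exceeded the fibroblast-like CPM in both replicates for all 3.

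Set against the other 8550 barcodes with under 0.5% haemoglobin, 1679 of 14485 tested genes were called higher in members, or 11.6%, and 2948 lower, or 20.4%. With intervals clear of 1 these were 1520, or 10.5%, and 1045, or 7.21%. The median log2 ratio of all genes was 0.44, and 0.12 with totals that omit haemoglobin and mitochondrial genes. On those totals the calls were 1230 higher and 3361 lower, so higher calls made up 26.8% of calls, against 36.3% on totals of all genes. Members had 4.10% mitochondrial counts and the other barcodes 23.1% at the median. The mesothelial list had 13 of 14 tested genes higher, 0 lower and a median of 7.81. Against these barcodes the medians of the transition, interstitial matrix and G2M lists had the other sign from the comparison with fibroblast-like cells. The median of all genes also moved, from -0.03 against fibroblast-like cells to 0.44 here. The G2M list had 0 of 22 genes called and a median of 0.19, and its median lay below that of all genes in both comparisons. The junction list had 6 of 16 higher and 3 lower, Cdh2, Pkp2 and Dsp, with a median of 0.70. Pkp2 had been called higher against fibroblast-like cells. The transition list had 7 of 21 higher and 2 lower, with a median of 0.78, and Acta2 and Tagln were the 2 lower. Interstitial matrix had 9 of 18 higher and 4 lower, with a median of 1.26, and Col1a1, Col1a2, Col3a1 and Dcn were among the higher. Complement had 11 of 14 higher and 1 lower, with a median of 4.45. Basement membrane had 10 of 22 higher and 3 lower, with a median of 0.52, and the Wnt list had 9 of 24 higher and 5 lower, with a median of 1.53. Slurp1, with a ratio of 974 (571 to 1787), Fxyd3, with 819.9 (372 to 2134), and Tm4sf5, with 720.0 (449 to 1215), led this comparison, and each ratio lies far above that median of all genes.

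**Figure D3:**
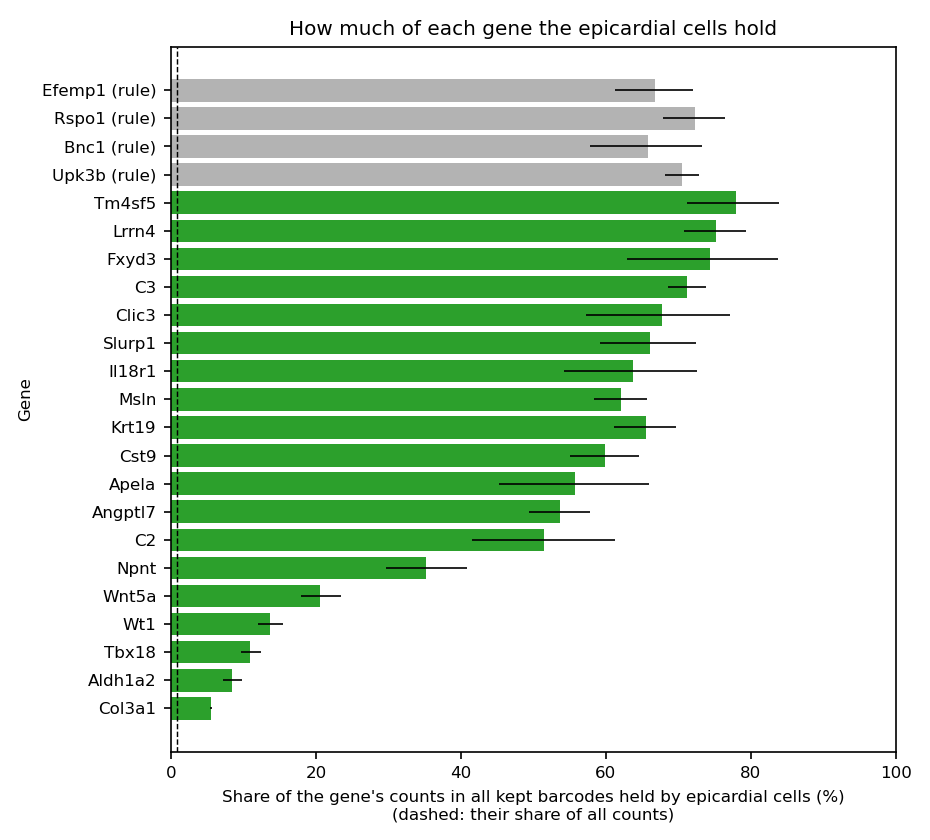
Bars give the share of each gene's counts in all kept barcodes that the epicardial cells hold, in percent with exact 95% intervals, and the dashed line marks their 0.824% of all counts. Tm4sf5 stands at 78.0% and Wt1 at 13.7%.

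The counts of some mesothelial genes outside the members were concentrated in few barcodes. The 20 barcodes that met the marker minimum but failed another limit held a further 19.3% of Msln, 15.6% of Lrrn4 and 17.3% of Upk3b counts, beside 62.1% of Msln and 75.2% of Lrrn4 counts in members. One of them failed on Pecam1 and Cdh5 alone, with 1 count of each. It had 188 marker counts among 41639 counts and fell in the endocardial-like class. There it held 128 of the class's 131 Upk3b counts, 41 of 41 Lrrn4 counts, 26 of 28 Msln counts and 32 of 34 C3 counts. It also held 10 of the class's 22 Krt19 counts, 41 of 186 Gpm6a counts and 21 of 250 Wt1 counts. The class's counts of Krt19, Gpm6a and Wt1 thus lay mostly in other barcodes. Without thinning, Gpm6a was found in 29.1% of endocardial-like cells.

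Markers of other cell types were summed over whole lists to describe what else the members carried. The fibroblast list summed to 10939.8 CPM in members, against 15241 CPM in fibroblast-like cells. Col1a1, Col1a2 and Dcn, at 3569, 4463 and 2664 CPM in members, made up most of that sum. Of its 8 genes, 0 were called higher and 5 lower, with a median log2 ratio of -3.08, and Pdgfra, Tcf21 and Dpt among the 5 helped define the fibroblast-like class. The other two, Lum and Meox1, a mesenchymal homeobox factor, were at 96.8 and 3.58 CPM in members, against 1486 and 151 CPM in fibroblast-like cells. The fibroblast minimum itself was met by 5 members. Smooth muscle markers summed to 25.1 CPM in members, against 1004 CPM in fibroblast-like cells, with Myh11 and Cnn1 at 0. Pericyte markers summed to 68.1 CPM in members, against 423 CPM in fibroblast-like cells, with Notch3 and Vtn at 0, and no member met the pericyte minimum. Of 7 tested pericyte genes, 1 was called higher, Kcnj8, and 4 lower, 3 of these with a clear interval. Kcnj8 was found without thinning in 29.4% of members and 6.07% of fibroblast-like cells, and after thinning in 2% and 2.22%. Cardiomyocyte markers summed to 1151 CPM in members, against 1419 CPM in fibroblast-like and 42019.7 CPM in cardiomyocyte-like cells. Other epithelial markers summed to 61.0 CPM in members, all of them Krt14 counts, with Epcam, Cdh1, Krt5, Sftpc, Nkx2-1 and Foxa2 at 0. Glial markers summed to 10.8 CPM in members, against 9.56 CPM in fibroblast-like cells, with Sox10 at 0.

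Endothelial and macrophage sums were above those of fibroblast-like cells through a few genes. The vascular endothelial list summed to 240.2 CPM in members, against 150.5 CPM in fibroblast-like cells, and the member rule had capped 2 of its genes. Of its 4 tested genes, 1 was called higher and 0 lower, with a median log2 ratio of -0.10. The 1 gene was Kdr, a VEGF receptor, at 109 and 124 CPM in members, against 5.09 and 3.55 CPM in fibroblast-like cells, found in 24 members. The endocardial list summed to 199 CPM in members, against 48.1 CPM in fibroblast-like cells, with 1 of its 3 tested genes called higher and 1 lower, Nfatc1, at 0 counts, and a median of -0.90. Npr3, a clearance receptor for natriuretic peptides, carried most of this sum, at 176 and 189.9 CPM in members, against 4.77 and 4.26 CPM in fibroblast-like cells and 532 CPM in endocardial-like cells, which it helped define. Macrophage markers summed to 57.0 and 230.2 CPM in members of replicates 1 and 2, and to 165 CPM in both, against 26.5 CPM in fibroblast-like cells, with Ptprc at 0. Of 6 tested macrophage genes, 2 were called higher, Csf1r and Tyrobp, and 0 lower, with a median of 2.74. One member of replicate 2 held 64 of the 92 macrophage list counts and 14 of the 16 C1qa counts. Csf1r, a receptor for macrophage growth factor, was spread more widely, with 20 counts over 14 members. The part of doublets or of free RNA in these sums was not tested.

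**Figure D4:**
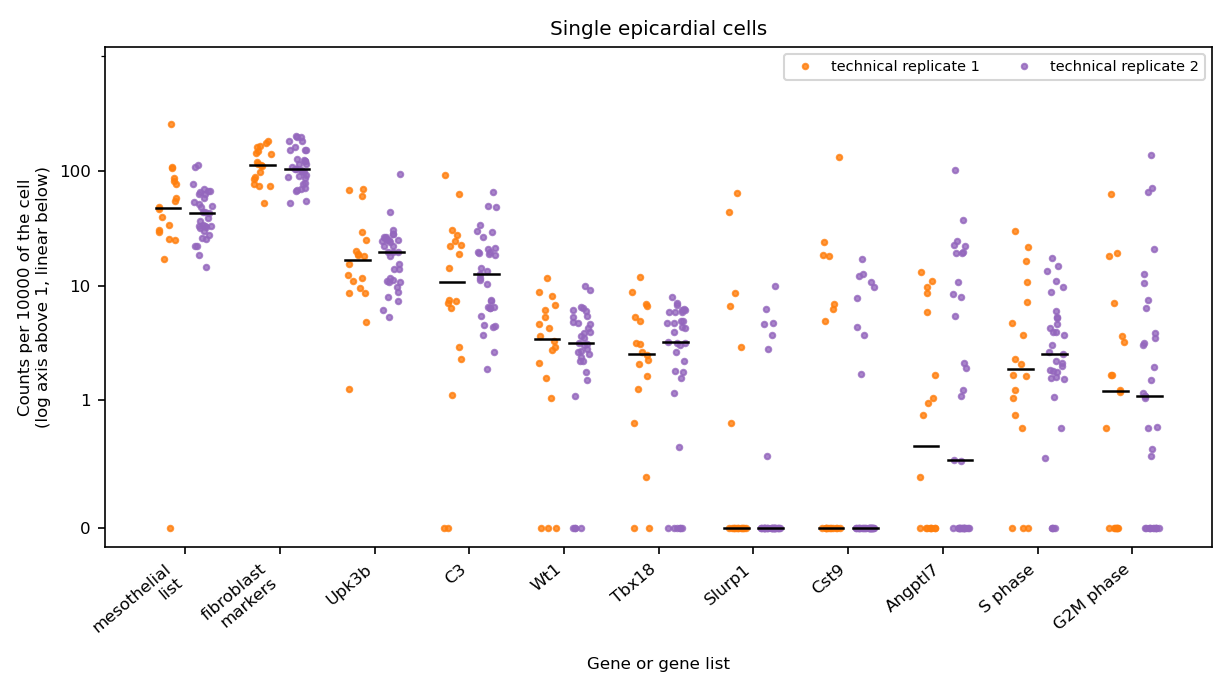
Each point is 1 member, placed by its counts of a gene or gene list per 10000 counts of that cell (log axis above 1, linear below), with technical replicates side by side and a bar at the median. The mesothelial list has medians of 47.2 and 43.0 in replicates 1 and 2, while most members have no Slurp1 count.

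Members varied among themselves. The mesothelial list took 0, 47.2 and 256 counts per 10000 of a cell at the lowest, median and highest member of replicate 1, and 14.5, 43.0 and 112 in replicate 2. The fibroblast list took 52.7, 114 and 181 counts per 10000 at the lowest, median and highest member of replicate 1, and 52.5, 104.5 and 203 in replicate 2. All members carried counts of the fibroblast list, with Col1a1, Col1a2 and Dcn each found in 51 of 51, and 50 of 51 carried mesothelial ones. The exception, in replicate 1, had 3 marker counts, 0 mesothelial counts, 145 fibroblast-list counts and 29 Postn counts, and it is the member nearest the rule's minimum. A second member of replicate 1 had 37.9% mitochondrial counts, the single value over 20%.

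Some genes were confined to part of the members. Slurp1 had counts in 13 members, 6 of 18 in replicate 1 and 7 of 33 in replicate 2, and 3 members held 65.7% of its counts. Cst9, a cystatin-type protease inhibitor, had counts in 16 members. In thinned members Slurp1 was found in 7, Cst9 in 14 and both in 6. Angptl7, a secreted angiopoietin-like protein, was found in 28 members, at 285 and 696 CPM in replicates 1 and 2, against 21.6 and 34.0 CPM in fibroblast-like cells. Its highest member had 13.25 counts per 10000 in replicate 1 and 101.4 in replicate 2, while the medians were 0.641 and 0.535.

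Angptl7 also differed between the whole libraries. Members held 36.6% of its kept counts in replicate 1 and 60.7% in replicate 2. The ratio of its CPM over all kept barcodes of replicate 1 to that of replicate 2 was 0.400, and 0.642 with the members left out.

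**Figure D5:**
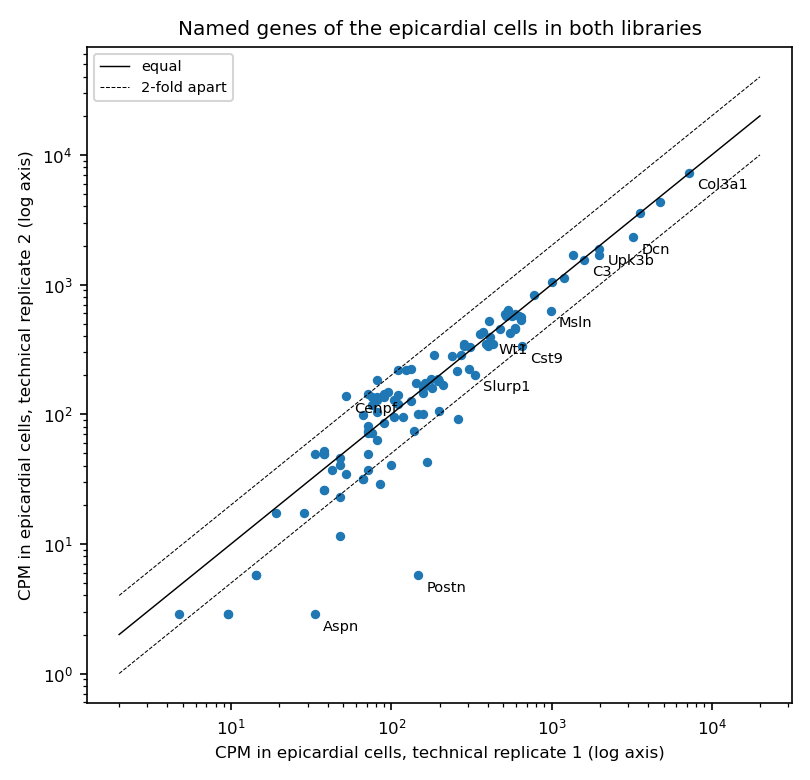
Each point is 1 named gene, by its CPM in the epicardial cells of technical replicate 1 and technical replicate 2, both on log axes, with lines at equality and 2-fold apart. Upk3b stands at 1982 and 1894 CPM, while Postn, at 147 and 5.75 CPM, lies outside the lines.

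Cell cycle genes were lower or not called in members. Of 20 tested S phase genes, 0 were called higher and 5 lower than in fibroblast-like cells, with a median log2 ratio of -0.86. Of 22 tested G2M genes, 0 were called in either direction, with a median of -0.49. The S phase list summed to 770.1 and 400.0 CPM in members of replicates 1 and 2, and to 539.6 CPM in both. Fibroblast-like cells had 945 and 769 CPM, and 862 CPM in both. The G2M list summed to 784 and 1606 CPM in members, and to 1296 CPM in both. Fibroblast-like cells had 1871 and 1599 CPM, and 1742 CPM in both, so the G2M sums were nearly equal in replicate 2. A small number of members carried these counts, since 5 cells held 85.3% of the G2M counts. Pcna, the sliding clamp of DNA polymerase, stood at 19 and 20.1 CPM in members, against 41.3 and 46.1 CPM in fibroblast-like cells. With cells thinned to 2000 counts, 11 of 50 members held at least 3 counts of either list, or 22% (11.5 to 36.0), against 33.1% of fibroblast-like cells (30.1 to 36.2). The intervals overlap, and the shares in members were 27.8% in replicate 1 and 18.8% in replicate 2. Vascular endothelial-like cells had 46.7% and cardiomyocyte-like cells 9.72% by the same measure. Without thinning the share was 52.9% in members and 54.2% in fibroblast-like cells.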

How the data were processed

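The deposited values are raw counts, whole numbers for each gene in each barcode, and the libraries were made with 10x Chromium Single Cell 3' v2 chemistry, per the labels. Whether a count is a molecule or a read is not stated. Cell Ranger 2.1.0 and the build mm10 appear in the submitters' processing notes. Symbols and coordinates came from GENCODE vM21 on GRCm38, which named 27645 of 27999 features. The members and gene lists were chosen with earlier results of these data known.

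Within each technical replicate the counts of a class were added up and scaled to CPM (counts per 1000000). Exact 95% intervals are conditional binomial for ratios, Poisson for levels and Clopper-Pearson for shares. They cover counting error only. A fold against 0 counts is a lower bound from 3 counts over the class, and list medians use these bounds. Endothelial-like classes needed at least 2 counts of Pecam1 and Cdh5, and the endocardial-like class also at least 2 counts of Npr3 and Nfatc1. Pericyte-like cells were defined by Rgs5, Kcnj8 and Abcc9, and cardiomyocyte-like cells by at least 1% Myl2 and Myl7. Genes used to define a class are no result for it. For shares, each cell was thinned to 2000 counts with seed 0. No doublet caller was run: 5 members met the fibroblast minimum and 0 the pericyte minimum. The libraries shared 53 barcode sequences, 1 of them a member's.

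Named genes are the 5 given markers, up to 6 per list by level and 3 per list and direction by ratio, and outside the lists the 10 called genes with the largest and smallest ratios to fibroblast-like cells that had at least 50 counts. Other genes named, list members included, were chosen after their values were seen. Alternatives changed the gene minimum, marker minimum, Myl limit, gene filter, total and averaging, left out members that met another class's minimum, and left out each technical replicate. One, an interval clear of 1, was chosen after seeing the data. The call rule was run on simulated counts drawn without variation between cells, so that check does not cover genes whose counts lie in few cells. The work used scipy 1.17.1 and numpy 2.4.6 under Python 3.11.15, with pandas 2.3.3 for tables and matplotlib 3.10.9 for plots.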

Additional observations from a re-analysis of the deposited data

How the results depend on the processing

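The counts of called genes and the share of members were recomputed under each alternative. Leaving out 1 technical replicate moved the share of members, 0.434%, to between 0.310% (without replicate 2) and 0.555% (without replicate 1). The genes called higher than in all other barcodes then numbered 2754 to 2885, against 1679 with both, and those called lower than in fibroblast-like cells 1671 to 2046, against 1118, since 1 replicate sets the call in place of both. With a gene filter of 50 counts, 672 genes were higher than in fibroblast-like cells, against 1021, as fewer genes were tested. With a counting interval clear of 1, 1045 genes were lower than in all other barcodes, against 2948. That setting turned the balance of calls: higher genes made up 59.3% of calls against all other barcodes, from 36.3%, and 55.7% against fibroblast-like cells, from 47.7%. The median log2 ratio to fibroblast-like cells was 0.03 with a gene filter of 10 counts, against -0.03. All other such counts stayed within 1.5 times. Of 1598 values of named genes across the alternatives, over 188 pairs of a gene and a comparison, 1423 moved by less than their counting interval, 175 by more and 0 reversed. No paired analysis was possible because the results come from no test and both libraries are technical replicates of 1 sample. With 51 members in 1 sample, low genes cannot be called absent, and variation between animals was not measured.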
